A study of Mus musculus with 11 samples.

Results

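The mitochondrial ribosomal protein genes encode the protein subunits of the mitoribosome, the ribosome inside mitochondria. They were taken as the protein-coding genes of the deposited table whose mouse symbol starts with Mrpl or Mrps followed by a number, which gave 78 of 48795 genes, with 49 Mrpl and 29 Mrps symbols. All 78 passed the filter on low values in each comparison, an average of 1 TPM or more (the deposited unit, a length-corrected share of all transcripts) in the libraries compared. The 5 processed pseudogenes with such symbols were not counted.

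All groups came from spleens of female mice, 8 to 12 weeks old, taken 10 days after intravenous immunization with sheep red blood cells. Light zone (LZ) germinal center B cells were sorted as B220+ CD138neg IgDneg CD38neg Fas+ CD86high CXCR4low from 4 Myc WT mice, numbered here 1 to 4, and from 4 Myc V394D mice, numbered 5 to 8. The Myc V394D allele carries aspartic acid in place of valine in MYC, which by the study's description abolishes binding to MIZ1 and leaves binding to MAX. Memory B cells (MBC) were sorted as B220+ CD138neg IgDneg CD38+ CD273+ from Myc WT mice 1, 3 and 4, whose LZ cells were also sequenced. There was no Myc V394D MBC group. The titles of the Myc V394D samples carry another code than those of the Myc WT samples, and Myc WT mouse 4 carries another than mice 1 to 3. The labels do not say what the codes stand for, and whatever separates the Myc V394D code from the others cannot be told apart from the genotype.

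The mitoribosome translates the messages of the mitochondrial genome, which encode core subunits of the respiratory chain and ATP synthase. Its 2 ribosomal RNAs are made in mitochondria from mt-Rnr1 and mt-Rnr2, whereas all of its proteins are encoded in the nucleus, made on cytosolic ribosomes and imported. Some of the proteins have counterparts in bacterial ribosomes, and others occur only in mitoribosomes. Light zone B cells that receive T cell help induce MYC, a transcription factor known for driving ribosome production and cell growth, before they divide again, while memory B cells are resting cells.

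Most markers followed the labels, with exceptions. Summed over 8 germinal center genes, levels ran from 967 to 1195 TPM in Myc WT LZ, from 657 to 993 TPM in Myc V394D LZ and from 444 to 564 TPM in MBC. A list of 7 memory sort genes summed to at most 51.2 TPM in any LZ library and to at least 562 TPM in any MBC library, with 6 of the 7 passing the adjusted test in limma as higher in MBC and Nt5e at 9.42, 6.80 and 11.5 TPM against 10.8 to 13.4 TPM in Myc WT LZ. Although the MBC gate was IgDneg, Ighd was at 156, 59.3 and 90.6 TPM in MBC against 19.6 to 31.9 TPM in Myc WT LZ. A list of 4 naive follicular genes summed to 832 to 893 TPM in MBC, 366 to 368 TPM in Myc WT LZ and 291 to 402 TPM in Myc V394D LZ, and 3 of the 4 passed as higher in MBC. The sum of 5 plasma cell genes was 229 to 381 TPM in Myc WT LZ, 134 to 221 TPM in Myc V394D LZ and 193 to 402 TPM in MBC, so on the deposited scale Myc V394D LZ lay below Myc WT LZ in every library. With ribosomal RNA genes removed as described below, 3 of the 5 had higher means in Myc V394D LZ and 2 lower, with a median log2 difference of 0.07. The part of these markers in the results was not tested. Sequencing depth is unknown because the table gives no counts. The share of all TPM taken by 356 ribosomal RNA genes ran from 35.7% to 44.5% in Myc WT LZ, from 44.1% to 61.3% in Myc V394D LZ and from 36.1% to 37.5% in MBC, and a larger share lowers the TPM of every other gene. The 356 include mt-Rnr1 and mt-Rnr2, so the mitoribosome's own RNAs are part of this share. In Myc WT LZ, Myc V394D LZ and MBC, mt-Rnr1 took 4.19% to 5.39%, 4.94% to 7.81% and 6.01% to 10.4%. For mt-Rnr2 it was 14.5% to 19.2%, 18.5% to 27.0% and 19.5% to 20.9%. Counts and medians are therefore also given after these genes were removed and each library was rescaled to the same total of 1000000, called the rRNA-removed scale. Genes above 0 numbered 15460 to 19537 in Myc WT LZ, 13169 to 16421 in Myc V394D LZ, and 12983, 11527 and 16040 in MBC of mice 1, 3 and 4. The MBC library of mouse 3 held 6712.59 TPM of 6 erythroid genes against at most 410 TPM in every other library. In such bulk libraries, less RNA per cell and fewer cells that express a gene cannot be told apart.

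Stretches upstream of the start sites are shown for 4 members: the 2 that lead the lower values in Myc V394D LZ, Mrps18c and Mrpl17, and the 2 that passed the adjusted test in both comparisons with MBC, Mrpl51 and Mrps18a. They are the 250 bases before the annotated start, from RefSeq on build GRCm38.p6, and 69 of the 78 members matched a window there. They lie at chr5:100798509-100798758 on the plus strand for Mrps18c, chr7:105811088-105811337 on the minus strand for Mrpl17, chr6:125191950-125192199 on the plus strand for Mrpl51 and chr17:46110754-46111003 on the plus strand for Mrps18a. Gene coordinates given elsewhere here come from the GENCODE annotation, whose starts lie further upstream, so that 132 of the 250 bases for Mrps18c, 12 for Mrpl17, 18 for Mrps18a and all 250 for Mrpl51 fall inside the gene as GENCODE gives it. Distances are from the RefSeq start. Capitals mark exact matches, on either strand, to CACGTG (the E-box that MYC with MAX can bind), GCGCATGC (the core of the NRF1 motif), CCGGAAG (an ETS motif) or AAGATGGCG (a YY1 motif).
Mrps18c: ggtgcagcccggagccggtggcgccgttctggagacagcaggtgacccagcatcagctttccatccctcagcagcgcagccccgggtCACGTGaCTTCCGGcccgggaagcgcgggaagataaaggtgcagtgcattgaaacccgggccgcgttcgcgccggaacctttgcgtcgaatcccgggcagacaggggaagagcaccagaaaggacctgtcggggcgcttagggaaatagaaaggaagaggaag
Mrpl17: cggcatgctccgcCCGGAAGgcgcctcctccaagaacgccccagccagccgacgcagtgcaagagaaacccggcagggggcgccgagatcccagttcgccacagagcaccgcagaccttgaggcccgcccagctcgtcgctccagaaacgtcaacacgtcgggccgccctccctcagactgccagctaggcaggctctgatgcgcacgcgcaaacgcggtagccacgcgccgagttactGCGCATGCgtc
Mrpl51: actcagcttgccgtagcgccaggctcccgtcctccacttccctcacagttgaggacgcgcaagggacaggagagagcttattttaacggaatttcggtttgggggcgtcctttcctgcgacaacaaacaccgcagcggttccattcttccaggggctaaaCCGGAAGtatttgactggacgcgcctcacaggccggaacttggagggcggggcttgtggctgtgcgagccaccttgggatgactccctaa
Mrps18a: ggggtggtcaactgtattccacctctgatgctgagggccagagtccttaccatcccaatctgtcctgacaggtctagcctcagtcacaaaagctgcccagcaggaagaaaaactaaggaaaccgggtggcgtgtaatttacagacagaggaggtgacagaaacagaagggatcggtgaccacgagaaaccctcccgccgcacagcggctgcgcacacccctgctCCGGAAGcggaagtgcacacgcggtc

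The E-box of Mrps18c began 163 bases before its start and an ETS match began at 156 bases. In Mrpl17 an NRF1 match began 11 bases and an ETS match 237 bases before its start, and the ETS matches of Mrpl51 and Mrps18a began 90 and 26 bases before theirs. Over windows of 300 bases that also include 50 bases after the start, the E-box occurred in 7 of 75 member windows (9.33%), in 7.15% of all 32851 windows and in 8.04% of the windows of protein-coding genes. Some genes have several overlapping windows, as Mrpl2 does for the E-box, and counted by gene it occurred in 5 of 69 members (7.25%) against 9.19% of protein-coding genes. ETS matches occurred in 34.7% of member windows against 8.86% of all windows and 11.9% of protein-coding ones. NRF1 and YY1 matches each occurred in 10.7% of member windows, against 2.71% and 1.40% of all windows and 3.67% and 1.92% of protein-coding ones. By gene, ETS matches occurred in 37.7% of members against 13.4% of protein-coding genes, and NRF1 and YY1 matches each in 11.6% of members against 4.13% and 2.25%. The 5 members with an E-box were Mrpl2, Mrpl20, Mrpl36, Mrpl37 and Mrps18c. Their log2 differences between Myc V394D LZ and Myc WT LZ were -0.60, -1.21, -0.17, 0.24 and -1.71, so the 5 genes spread over nearly the whole range of the members. The median difference was -0.60 for them and -0.69 for the 64 other members with a window, and between MBC and LZ it was -0.72 and -1.60. For the 26 members with an ETS match the medians were -0.71 in Myc V394D LZ and -1.96 in MBC, against -0.68 and -0.91 for the 43 without. The 8 members with a YY1 match had -0.05 and -1.995, against -0.70 and -1.197 for the 61 without, and the 8 with an NRF1 match had -0.80 and -0.89, against -0.68 and -1.51. These differences were not tested. A match is a run of letters and says nothing of binding in these cells.

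In Myc WT LZ cells the members were expressed throughout. Their mean levels in TPM, which allow genes to be compared because they are corrected for length, spanned 16.9-fold from 7.59 to 128 TPM, with a median of 27.7 TPM. The highest level was that of Mrps21, a small subunit protein of bacterial type, at 128 ± 17.6 TPM (SD, n = 4). Mrpl18, a large subunit protein of the central protuberance, followed at 122 ± 28.4 TPM, then Mrpl52 at 104 ± 15.0 TPM, Mrpl17 at 103 ± 20.1 TPM and Mrps14 at 99.9 ± 19.7 TPM (SD, n = 4 each), and these neighbours lay within each other's spread. The lowest were Mrpl11 of the stalk base at 7.59 ± 1.02 TPM and Mrps6 at 7.88 ± 2.22 TPM (SD, n = 4 each), also within each other's spread.

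The Myc WT LZ libraries agreed closely over the members and the MBC libraries did not. Across the 78 genes, Pearson's r of log2(TPM + 1) between pairs of libraries was 0.847 to 0.949 within Myc WT LZ, 0.493 to 0.787 within Myc V394D LZ and 0.275 to 0.523 within MBC, a description over genes that share their libraries. The median coefficient of variation of a member between libraries was 22.1%, 45.5% and 87.8% in these groups. No member was listed at 0 in a Myc WT LZ library. In Myc V394D LZ 1 member was listed at 0, in mouse 6, and in MBC 7 members were at 0 in mouse 1, 9 in mouse 3 and none in mouse 4. The library with the most zeros was thus also the one with the fewest genes above 0 and the large erythroid sum. The part of these properties in the results was not tested.

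Summed over the 78 members, the deposited levels were 2487, 2988, 3083 and 2268 TPM in Myc WT LZ of mice 1 to 4. They were 2319, 1882, 1744 and 1365 TPM in Myc V394D LZ of mice 5 to 8, and 1067, 1820 and 1771 TPM in MBC of mice 1, 3 and 4. Myc V394D mouse 5 lay within the Myc WT LZ range and the other 3 lay below it, as did all 3 MBC libraries. On the rRNA-removed scale the sums were 4296, 4972, 4795 and 4089 in Myc WT LZ, 4148, 3747, 3641 and 3528 in Myc V394D LZ and 1697, 2915 and 2772 in MBC. The order of the 3 groups was the same on both scales, and the gap between the genotypes was narrower after removal of ribosomal RNA.

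**Figure D1:**
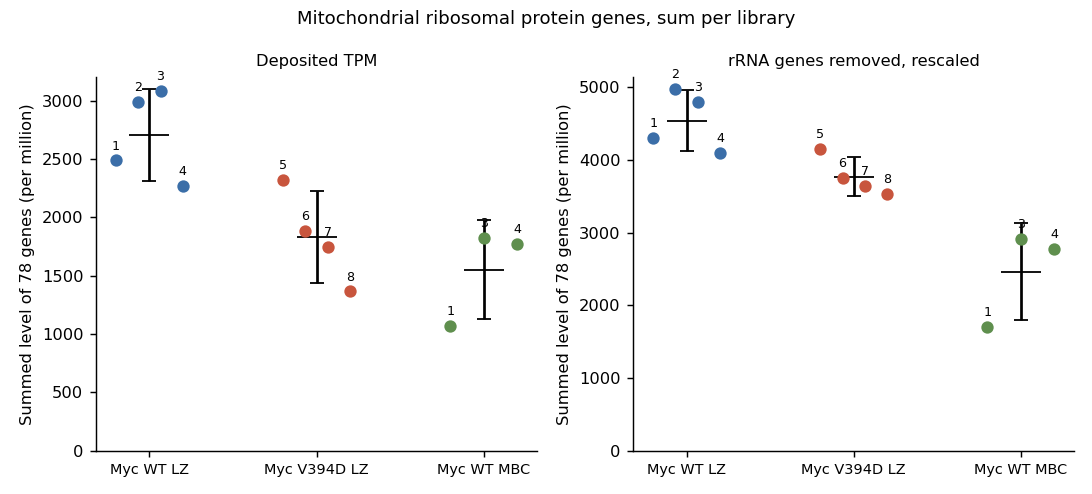
Summed level of the 78 mitochondrial ribosomal protein genes per library, in TPM as deposited (left) and on the rRNA-removed scale (right). Points are libraries with mouse numbers, bars are the mean and SD. The 3 MBC libraries lie below all Myc WT LZ libraries on both scales, and Myc V394D mouse 5 lies within the Myc WT LZ range.

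The first question was whether members differed in LZ cells without MYC-MIZ1 complexes. Most had lower mean levels in Myc V394D LZ, by a modest amount. The mean log2(TPM + 1) was lower for 72 of 78 members, against 73.7% of all 12869 genes tested. The median difference was -0.68, against -0.31 over all genes, so the members' median lay 0.38 below that of all genes. With limma and Benjamini-Hochberg adjustment over all genes no member passed an adjusted p of 0.05 in either direction, and 0.0389% of all genes passed as lower. At an unadjusted p under 0.05 in limma, 33 members were lower and 0 higher, against 15.7% and 1.24% of all genes, so the 0 higher is near the background. In 18 members all 4 Myc V394D values lay below all 4 Myc WT values, which was so for 9.16% of all genes.

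Removal of ribosomal RNA took away much of this difference but left the gap to the other genes. On that scale 60 members were lower, against 54.2% of 14340 genes, and the median was -0.39 against -0.05 over all genes, a gap of -0.34. At an unadjusted p under 0.05, 16 members were lower, against 6.56% of all genes, and the groups did not overlap in 11 lower members, against 3.81%. Without Myc V394D mouse 5, 4 members passed the adjusted test as lower: Mrps18c, Mrpl46, Mrps31 and Mrps28, which were named after their values were seen. In that fit 1.88% of all genes passed as lower. The count at an unadjusted p fell to 21 without Myc WT mouse 3 and rose to 41 without Myc V394D mouse 5, while the share of all genes lower at that p was 9.43% and 21.5% in these fits.

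The classes of subunit proteins had similar medians in this comparison. The median log2 difference was -0.69 for the 30 large subunit proteins of bacterial type, -0.69 for 21 large subunit proteins found only in mitoribosomes, -0.56 for 16 small subunit proteins of bacterial type and -0.76 for 10 small subunit proteins found only there. With rRNA removed these medians were -0.40, -0.39, -0.27 and -0.49. These classes follow the known structures, in which Mrps18a and Mrps30 are part of the large subunit in spite of their symbols. Mrps36, now known as a component of the oxoglutarate dehydrogenase complex, was in no class. Of 5 further subunits whose symbols do not start with Mrp, namely Dap3, Ptcd3, Chchd1, Aurkaip1 and Gadd45gip1, none passed the adjusted test. At an unadjusted p under 0.05 in limma 3 were lower, against 15.7% of all genes. Their median was -0.66, or -0.43 on the rRNA-removed scale. Between MBC and LZ the median of these 5 was -0.16, against -1.26 for the members and -0.14 for all genes. None passed the adjusted test and 1 was lower at an unadjusted p under 0.05 in limma, or 20%, near the 15.8% of all genes. Between Myc V394D LZ and MBC their median was -0.38, of opposite sign to the members' 0.72, and it was 0.01 on the rRNA-removed scale.

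Mrps18c is 1 of 3 genes related to a single bacterial S18 protein, and it sits in the small subunit. Its gene lies at chr5:100798627-100804471 on the plus strand of GRCm38. Its levels were 39.7, 62.5, 43.3 and 41.8 TPM in Myc WT LZ and 21.2, 18.6, 6.23 and 12.7 TPM in Myc V394D LZ. The groups did not overlap, and no Myc V394D library reached the lowest Myc WT value. The log2 difference was -1.71 ± 0.35 (SE) with an adjusted p of 0.0956 in limma, and an exact permutation test gave p = 0.0286, the smallest that 4 against 4 libraries allow. On the rRNA-removed scale it was -1.44 ± 0.33 (SE), adjusted p = 0.176 in limma. In MBC the gene was listed at 10.6, 67.3 and 28.5 TPM, a range that spanned the Myc WT LZ values.

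The related gene Mrps18a, whose product belongs to the large subunit, had overlapping groups. Its levels were 37.1, 41.3, 47.3 and 25.6 TPM in Myc WT LZ and 23.5, 68.6, 42.2 and 24.1 TPM in Myc V394D LZ. The log2 difference was -0.04 ± 0.35 (SE) with an adjusted p of 0.966 in limma, and it was 0.27 on the rRNA-removed scale, so its sign depended on the scaling. The remaining one, Mrps18b of the small subunit, ran from 19.6 to 41.1 TPM in Myc WT LZ and from 22.9 to 55.7 TPM in Myc V394D LZ, with a log2 difference of 0.15 ± 0.32 (SE), adjusted p = 0.843 in limma. The difference between these related genes was not tested.

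Mrpl41, a large subunit protein found only in mitoribosomes, lies at chr2:24974117-24975098 on the minus strand. It was at 28.1, 58.3, 37.9 and 52.8 TPM in Myc WT LZ and at 14.3, 18.4, 21.6 and 5.77 TPM in Myc V394D LZ. Again no value of either group lay within the other. The log2 difference was -1.58 ± 0.39 (SE), adjusted p = 0.111 in limma, and -1.31 ± 0.36 (SE) on the rRNA-removed scale, adjusted p = 0.231 in limma.

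Mrpl17, a large subunit protein of bacterial type, had the most negative difference with all libraries at -1.98 ± 0.88 (SE), but its groups overlapped. Its levels were 111, 109, 119 and 73.9 TPM in Myc WT LZ and 142, 1.69, 34.9 and 32.1 TPM in Myc V394D LZ. Mouse 5 was above every Myc WT library and mouse 6 was the lowest of the LZ libraries. The adjusted p was 0.283 in limma. The difference was -0.89 without mouse 6, -2.80 without mouse 5 and -1.75 on the rRNA-removed scale.

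Mrps34, a small subunit protein found only in mitoribosomes, was at 17.83, 16.01, 15.04 and 13.02 TPM in Myc WT LZ and at 1.84, 1.59, 8.38 and 8.61 TPM in Myc V394D LZ. Its log2 difference was -1.69 ± 0.46 (SE), adjusted p = 0.130 in limma. Exons of Nme3 overlap it on the same strand and Nme3 had the higher mean level, 23.6 against 9.27 TPM over all libraries, so reads of the 2 genes may have been shared and the value is uncertain. Mrpl55 was at 24.3, 13.4, 11.1 and 8.94 TPM in Myc WT LZ and at 7.12, 0, 8.77 and 6.03 TPM in Myc V394D LZ, with a log2 difference of -1.57 ± 0.65 (SE), adjusted p = 0.253 in limma. After removal of rRNA the differences were -1.52 for Mrps34 and -1.54 for Mrpl55.

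Mrps14, a small subunit protein of bacterial type, was among the members with the highest levels and had a small spread. Its levels were 105, 98.5, 122 and 74.4 TPM in Myc WT LZ and 46.7, 54.3, 54.2 and 34.5 TPM in Myc V394D LZ. The log2 difference was -1.06 ± 0.23 (SE), adjusted p = 0.101 in limma, and -0.76 ± 0.18 (SE) on the rRNA-removed scale. Members with central roles in translation did not pass either. Mrps12, the decoding-center protein in which streptomycin resistance arises in bacteria, had a log2 difference of -0.89 ± 0.31 (SE), adjusted p = 0.191 in limma. Mrpl12, the stalk protein that recruits translation factors, had -0.68 ± 0.33 (SE), and Mrpl58, a peptide release factor that became a ribosome subunit, had -0.38 ± 0.31 (SE), with adjusted p of 0.325 and 0.566 in limma. With rRNA removed the 3 differences were -0.61, -0.39 and -0.08.

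**Figure D2:**
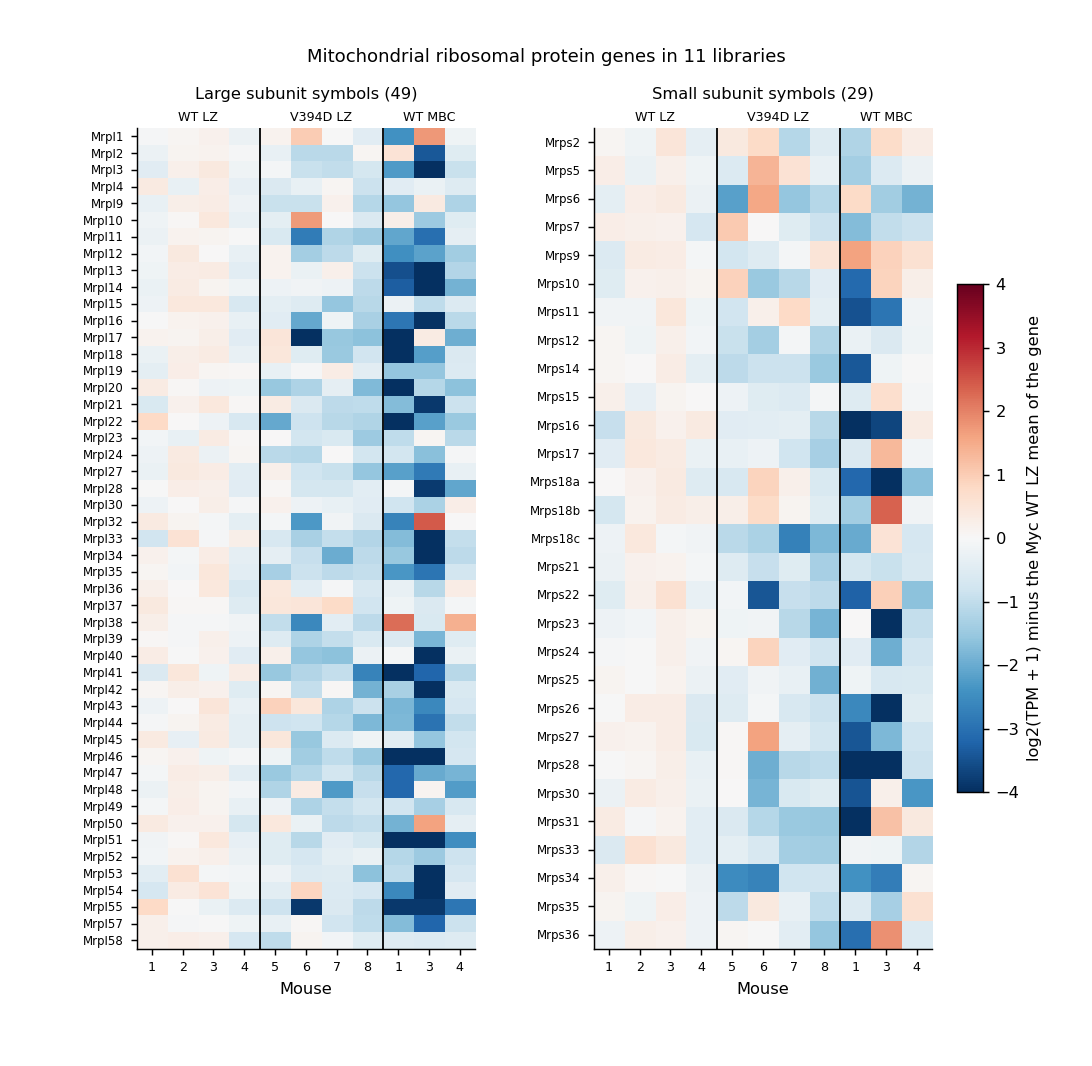
Each of the 78 genes (rows) in each of the 11 libraries (columns, mouse numbers), as log2(TPM + 1) minus that gene's Myc WT LZ mean; the colour scale ends at -4 and 4. Blue marks values below that mean and red values above it; blue prevails in Myc V394D LZ and is deepest in MBC of mice 1 and 3, and MBC of mouse 3 also holds deep red cells such as Mrps36 and Mrps18b.

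The second question was how resting MBC differed from LZ cells in Myc WT mice. Most members had lower means in MBC, with a median further below 0 than that of all genes. The mean log2(TPM + 1) was lower for 73 of 78 members, against 55.3% of all 13245 genes tested, with a median difference of -1.26 against -0.14 over all genes. With limma 11 members passed the adjusted test as lower and 0 as higher, against 5.04% and 4.17% of all genes. At an unadjusted p under 0.05, 41 members were lower, against 15.8% of all genes, and 1 was higher, against 11.3%. The groups did not overlap in 35 lower members, against 14.4% of all genes. On the rRNA-removed scale 74 members were lower, against 59.7% of all genes, 12 passed the adjusted test as lower, against 5.57%, and the median was -1.43. These 12 were the same 11 and Mrps21.

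The number that passed rested on few libraries. It was 2, Mrpl51 and Mrpl55, without any one of the 4 Myc WT LZ libraries, or 2.56% of the members against at most 2% of all genes called lower in each of those fits. It was 18 lower and 1 higher without MBC of mouse 3, and 33 without MBC of mouse 4, where 5.9% and 14% of all genes passed as lower. Without mouse 3, 6.78% of all genes passed as higher. With the mouse as a replicate block, in the 3 mice that gave both cell types, 1 member passed, Mrpl51, which is 1.28% of the members against 0.897% of all genes, and the median was -1.22. A count of 1 or 2 does not set the members apart from all genes. The sign of the median was the same in all of these fits.

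Large subunit proteins had lower medians than small subunit proteins, a difference that was not tested. The median difference was -1.99 for large subunit proteins of bacterial type, all 30 of which had lower means, and -1.76 for the 21 found only in mitoribosomes. It was -0.74 for small subunit proteins of bacterial type and -1.07 for those found only there. After removal of rRNA the 4 medians were -2.18, -1.95, -0.83 and -1.31. Of the 11 members that passed, 10 were large subunit proteins and 1, Mrps28, was a small subunit protein, while most members belong to the large subunit. In the order of classes above, 6 of 30, 4 of 21, 1 of 16 and 0 of 10 passed. This split rests on few genes, as only 2 members passed without any one Myc WT LZ library, and it was not tested. The ratio of the summed TPM of Mrpl to that of Mrps symbols was 1.95, 1.92, 1.84 and 1.82 in Myc WT LZ, 2.13, 1.34, 1.79 and 1.98 in Myc V394D LZ, and 1.501, 0.778 and 1.454 in MBC. All 3 MBC ratios and those of Myc V394D mice 6 and 7 lay below the Myc WT LZ range. The lowest, in mouse 3, came with Mrps36 at 174 TPM and Mrps18b at 170 TPM, both far above their highest Myc WT LZ values of 58.1 and 41.1 TPM. The Mrps sum in that library was 1024 TPM. Symbols do not match subunits exactly, since Mrps36 was in no class and Mrps18a and Mrps30 belong to the large subunit. By medians rather than sums, Mrpl symbols exceeded Mrps symbols in mouse 1 by -0.28 on the log2 scale, in mouse 3 by -1.89 and in mouse 4 by -0.25, against 0.38, 0.19, 0.04 and -0.23 in Myc WT LZ and 0.30, -0.52, -0.15 and 0.05 in Myc V394D LZ. By this measure Myc V394D mouse 6 lay below MBC of mice 1 and 4, and MBC of mice 1 and 4 lay close to the lowest Myc WT LZ library.

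**Figure D3:**
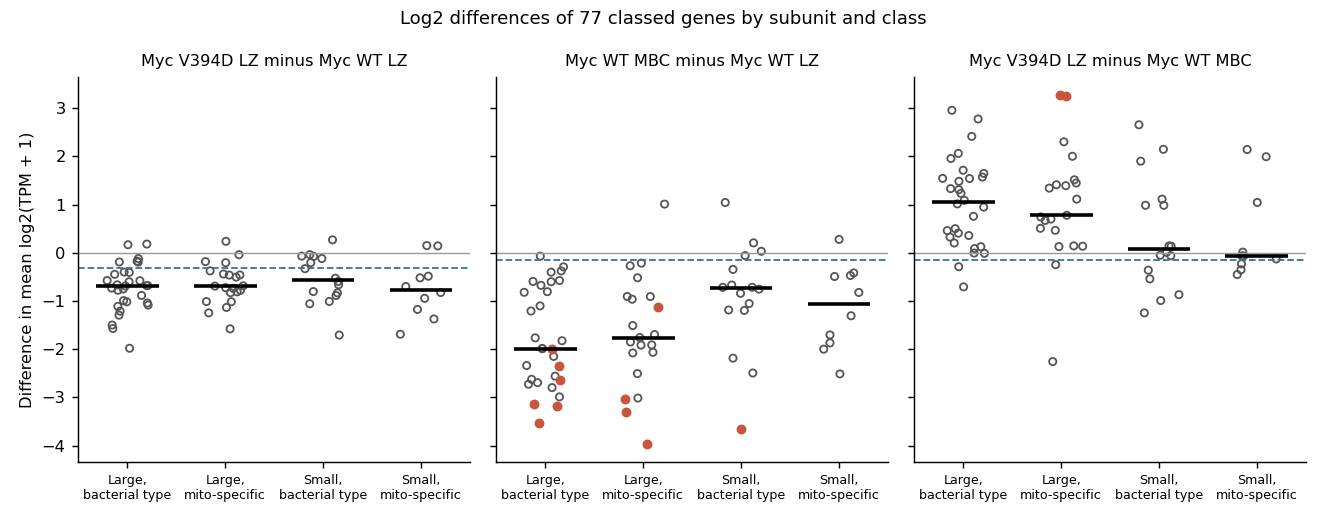
Difference in mean log2(TPM + 1) of 77 genes in 4 classes for each comparison; filled points passed an adjusted p of 0.05 in limma, thick lines are class medians and the dashed line is the median over all genes tested. In MBC against LZ the large subunit medians are -1.99 and -1.76 and the small subunit medians -0.74 and -1.07.

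Mrpl51, a large subunit protein found only in mitoribosomes, had the lowest difference of all. Its gene lies at chr6:125191801-125196269 on the plus strand. It was at 41.9, 47.6, 62.8 and 36.5 TPM in Myc WT LZ and at 1.09, 0.54 and 7.45 TPM in MBC. All MBC values were under those of LZ, and mouse 4 was the highest of the 3. The log2 difference was -3.97 ± 0.60 (SE), a 15.7-fold lower value on that scale, with an adjusted p of 0.00669 in limma and p = 0.0286 in an exact permutation test, the smallest that 3 against 4 libraries allow. Myc V394D LZ, at 32.98, 20.84, 33.28 and 27.8 TPM, lay between the 2 groups and overlapped neither.

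Mrpl55, a large subunit protein of bacterial type, was listed at 0, 0 and 0.96 TPM in MBC, and its difference of -3.53 ± 0.54 (SE) had an adjusted p of 0.00725 in limma. Mrps28, a small subunit protein of bacterial type, was at 31.8, 34.5, 38.7 and 26.2 TPM in Myc WT LZ and at 0, 0 and 17.3 TPM in MBC. Its difference was -3.67 ± 0.95 (SE), adjusted p = 0.0469 in limma. Where libraries are listed at 0, the size of the difference depends on the pseudocount of 1.

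Mrps18a was at 3.26, 0.14 and 10.8 TPM in MBC, all below its lowest LZ value of 25.6 TPM in Myc WT mice. The log2 difference was -3.30 ± 0.72 (SE), adjusted p = 0.0261 in limma. Mrpl14, which contacts the small subunit, was at 15.8, 24.3, 20.9 and 17.0 TPM in Myc WT LZ and at 1.06, 0 and 4.41 TPM in MBC, and its difference was -3.18 ± 0.61 (SE), adjusted p = 0.0164 in limma. Mrpl13 was at 30.5, 42.1, 43.1 and 25.5 TPM in Myc WT LZ and at 2.10, 0.30 and 14.9 TPM in MBC. Its difference was -3.15 ± 0.76 (SE), adjusted p = 0.0365 in limma.

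Mrpl12, the stalk protein, was lower in every MBC library than in any Myc WT LZ library. It was at 27.6, 39.0, 30.1 and 23.9 TPM in Myc WT LZ and at 4.63, 6 and 10.65 TPM in MBC, with a log2 difference of -1.99 ± 0.39 (SE), adjusted p = 0.0189 in limma. Myc V394D LZ, at 33.05, 11, 14 and 20.76 TPM, lay above all MBC values. The other members that passed were Mrpl41 at -3.03, Mrpl16 at -2.64, Mrpl47 at -2.35 and Mrpl52 at -1.13, with adjusted p of 0.0429, 0.0332, 0.0250 and 0.0308 in limma. Mrpl16 is a neighbour of the tRNA sites, and Mrpl47 lies near the exit of the peptide tunnel.

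Mrps9, a small subunit protein of bacterial type, was the member that was higher at an unadjusted p under 0.05. It was at 15.8, 30.1, 29.7 and 22.7 TPM in Myc WT LZ and at 74.8, 45.5 and 37.0 TPM in MBC. Every MBC value lay above every Myc WT LZ value, the log2 difference was 1.04 ± 0.37 (SE) and the adjusted p was 0.110 in limma. Mrpl38 had a like difference of 1.01 ± 0.62 (SE), adjusted p = 0.336 in limma, with 56.2 TPM in mouse 1, 7 TPM in mouse 3 and 31.6 TPM in mouse 4 against 10.17 to 13.31 TPM in Myc WT LZ. Mrpl58 was nearly equal in the 3 MBC libraries, at 18.3, 18.1 and 18.3 TPM, and its difference was -0.52 ± 0.35 (SE), adjusted p = 0.374 in limma. For Mrps12, at 20.3, 16.1 and 21.9 TPM in MBC, the difference was -0.35 ± 0.31 (SE), adjusted p = 0.512 in limma.

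Zeros in single MBC libraries also touched members with clear levels elsewhere. Of the members that averaged 10 TPM or more over all libraries, Mrpl20 was listed at 0, 17.0 and 11.5 TPM in MBC of mice 1, 3 and 4, Mrps31 at 0, 36.3 and 20.6 TPM and Mrpl22 at 0, 3.23 and 5.80 TPM. Mouse 3 held the 0 for Mrps23, at 24.6, 0 and 12.2 TPM, and for Mrpl34, at 19.3, 0 and 26.8 TPM. The same library was at 0 for Mrpl46, Mrpl53, Mrpl54 and Mrps26. No MBC library of mouse 4 lacked a member.

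In MBC of mouse 3, 56 members lay below the Myc WT LZ range, or 71.8% against 50.7% of all genes, and 15 lay above, or 19.2% against 30.1% of all genes, the latter led by Mrps36, Mrps18b and Mrpl32 (the first and last named after their values were seen) at 174, 170 and 163 TPM. The same genes were at 5.16, 11.8 and 3.73 TPM in mouse 1 and at 33.3, 29.6 and 29.8 TPM in mouse 4. For Mrps18b the log2 difference between MBC and LZ was 0.28 ± 0.77 (SE) with all libraries and -0.76 without mouse 3.

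**Figure D4:**
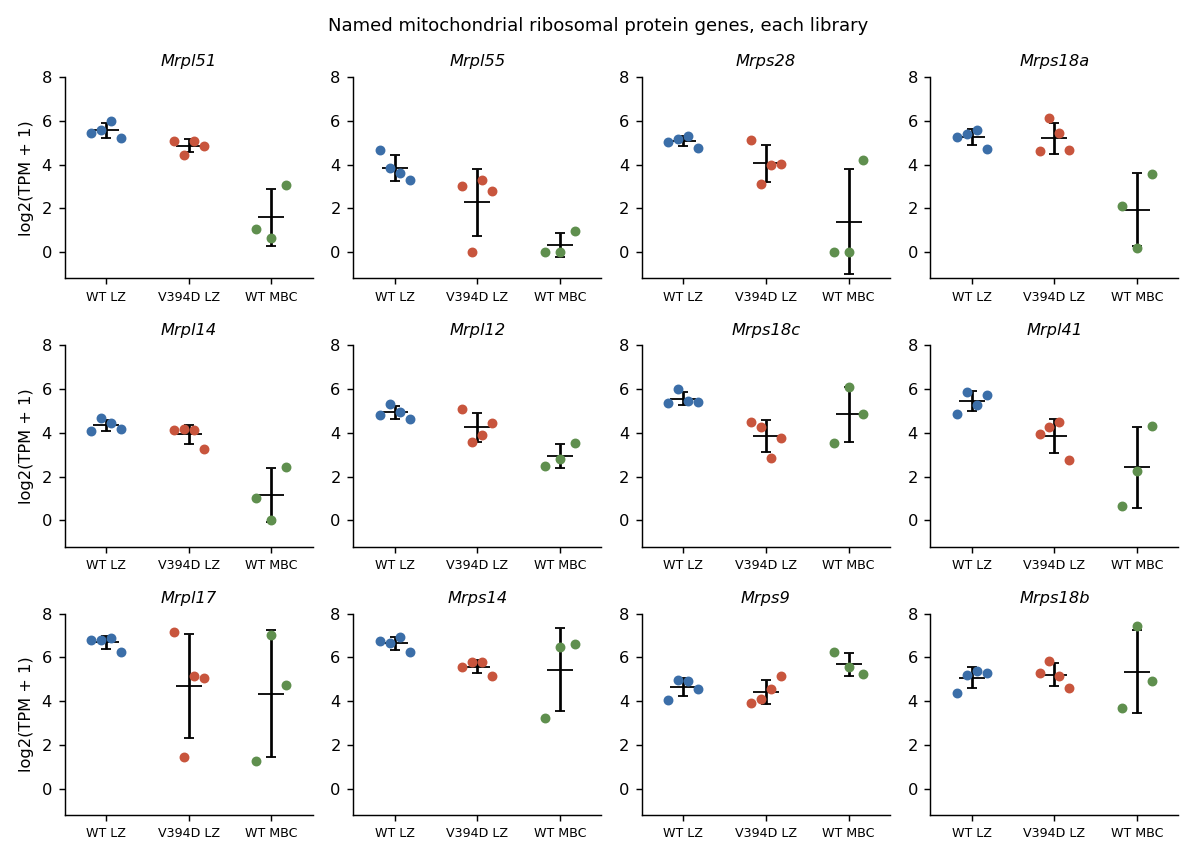
Levels of 12 named members in each library as log2(TPM + 1), with group mean and SD. Mrpl51, Mrpl55, Mrps18a, Mrpl14 and Mrpl12 are lower in all 3 MBC libraries than in any Myc WT LZ library, Mrps18c and Mrpl41 are lower in all 4 Myc V394D LZ libraries, and Mrps18b and Mrpl17 overlap.

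The 2 comparisons share the Myc WT LZ libraries, so their differences are not independent. Set side by side, the differences to Myc WT LZ of Mrpl41 were -1.58 in Myc V394D LZ and -3.03 in MBC, those of Mrpl47 -1.11 and -2.35, and those of Mrpl51 -0.69 and -3.97. Mrps18a had -0.04 and -3.30, whereas Mrps18c had -1.71 and -0.72.

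A further comparison set Myc V394D LZ against MBC of Myc WT mice. These groups differ in both genotype and cell type, which cannot be told apart here. The MBC libraries are those also compared with Myc WT LZ, so the 2 comparisons with MBC are not independent. The mean of 59 members was higher in Myc V394D LZ, against 43.9% of all 13131 genes, and the median difference was 0.72 against -0.16 over all genes. With limma 2 members passed the adjusted test as higher, Mrpl51 at 3.28 ± 0.67 and Mrps18a at 3.26 ± 0.77 (SE), with adjusted p of 0.0213 and 0.0421, against 1.36% of all genes. None passed as lower, against 2.52% of all genes. At an unadjusted p under 0.05, 14 members were higher, against 7% of all genes, and 2 were lower, Mrps9 and Mrpl38, against 12.3%. Mrpl38 was at 5.23, 1.07, 8.13 and 4.97 TPM in Myc V394D LZ, and its difference was -2.26 ± 0.79 (SE), adjusted p = 0.143 in limma. On the rRNA-removed scale 71 members were higher, against 58% of all genes, 28 at an unadjusted p under 0.05, against 10.9%, and 4 passed the adjusted test, against 2.11%, as Mrpl13 and Mrpl14 joined the 2 above. The number that passed on the deposited scale was 0 without any one Myc V394D LZ library or without MBC of mouse 1, and 10 without MBC of mouse 4. In these fits 0.474% to 1.01% and 3.07% of all genes passed as higher. Without MBC of mouse 3, 1 passed as higher, Mrpl51, and 1 as lower, Mrpl38, against 1.16% and 2.52% of all genes.

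Other genes that serve mitochondrial translation had medians between that of the members and 0 on the deposited scale in both comparisons with Myc WT LZ, but the assembly genes did not in Myc V394D LZ once rRNA was removed, and no such difference was tested. The median over all genes was itself -0.31 in Myc V394D LZ and -0.14 in MBC. In Myc V394D LZ the medians of translation factors and mitochondrial DNA expression genes lay close to that of all genes. Between Myc V394D LZ and MBC the medians were -0.23 for translation factors, 0.32 for assembly genes and -0.37 for mitochondrial DNA expression, against 0.72 for the members and -0.16 for all genes. Of 12 translation factors none passed the adjusted test in Myc V394D LZ or in MBC, and the median difference to Myc WT LZ was -0.36 in both, or -0.07 and -0.50 on the rRNA-removed scale. At an unadjusted p under 0.05 in limma, 1 of the 12 was lower in Myc V394D LZ, against 15.7% of all genes. In MBC 3 were lower and 1 higher at that p, against 15.8% and 11.3% of all genes. Counts this small do not set the list apart from all genes. Of 22 mitoribosome assembly genes 21 were tested, with medians of -0.51 in Myc V394D LZ and -0.74 in MBC. At an unadjusted p under 0.05 in limma, 6 of the 21 were lower in Myc V394D LZ, and 3 were lower and 3 higher in MBC, against 15.7% of all genes lower in Myc V394D LZ and 15.8% lower and 11.3% higher in MBC, so the MBC counts are near the background. Once rRNA was removed, all 22 were tested and these medians were -0.40, against -0.39 for the members, and -0.93, against -1.43. In this list 1 gene passed, in MBC as higher: Mettl17, an assembly factor of the small subunit, at 1.68 with an adjusted p of 0.0474 in limma, and none passed on the rRNA-removed scale. A count of 1 of 21 is near the 4.17% of all genes that passed as higher. The 10 genes of mitochondrial DNA expression had medians of -0.30 in Myc V394D LZ and -0.60 in MBC, or -0.01 and -0.75 on the rRNA-removed scale. None passed on the deposited scale. In each comparison 2 of the 10 were lower at an unadjusted p under 0.05 in limma, or 20%, near the 15.7% and 15.8% of all genes.

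Nuclear genes of the respiratory chain and ATP synthase had medians close to those of the members. Their 76 tested genes had medians of -0.72 in Myc V394D LZ and -1.37 in MBC. In limma 0 and 17 of these genes passed the adjusted test as lower, or 0% and 22.4%, against 0.0389% and 5.04% of all genes. Their medians with rRNA removed were -0.44 and -1.49. Genes of cytosolic ribosomal proteins, 80 in all, had medians of -0.58 and -0.48, or -0.27 and -0.57 on the rRNA-removed scale. On the deposited scale 1 and 7 passed as lower, or 1.25% and 8.75%, against 0.0389% and 5.04% of all genes.

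The messages that the mitoribosome translates had higher means in both groups. All 13 protein genes of the mitochondrial genome had higher means in Myc V394D LZ than in Myc WT LZ, with a median difference of 0.68, and 12 of 13 were higher in MBC, with a median of 0.93. In limma 0 passed the adjusted test in Myc V394D LZ, and 9 were higher at an unadjusted p under 0.05, against 1.24% of all genes. In MBC 7 passed the adjusted test as higher, against 4.17% of all genes. On the rRNA-removed scale the medians were 0.99 and 0.84. Summed, they were at 16770, 10789, 10618 and 17637 TPM in Myc WT LZ, at 19491, 23461, 21711 and 23493 TPM in Myc V394D LZ and at 33729, 38204 and 23852 TPM in MBC. All Myc V394D LZ and MBC sums lay above the highest Myc WT LZ sum, and MBC did not overlap Myc V394D LZ on this scale but did on the rRNA-removed scale. Of the 2 mitoribosome RNAs, mt-Rnr1 took 4.19% to 5.39% of TPM in Myc WT LZ, 4.94% to 7.81% in Myc V394D LZ and 6.01% to 10.4% in MBC. Its difference between MBC and LZ was 0.86, adjusted p = 0.0346 in limma, and that of mt-Rnr2 was 0.28, adjusted p = 0.229 in limma.

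**Figure D5:**
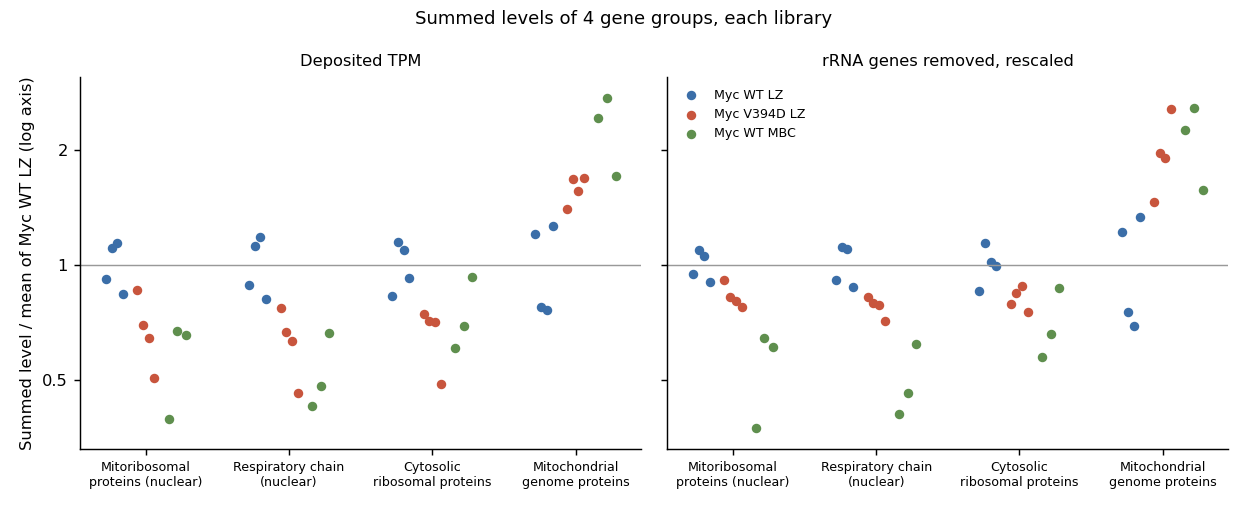
Summed level of 4 gene groups in each library, divided by the Myc WT LZ mean of the group, on a log axis, for both scales. Nuclear groups lie below 1 in all Myc V394D LZ and MBC libraries and the mitochondrial genome's protein genes lie above 1 in all of them.

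Other properties moved with the groups. Of 16 proliferation genes 13 passed the adjusted test in limma as lower in MBC, and their sum was 1806 to 3312 TPM in Myc WT LZ, 1442 to 2705 TPM in Myc V394D LZ and 452 to 801 TPM in MBC. Myeloid markers summed to at most 18.7 TPM in LZ libraries and to 36.4, 58.7 and 178 TPM in MBC, where 2 of the 6 passed the adjusted test in limma as higher and S100a8 and S100a9 were at 0. The erythroid sum was 116 to 226 TPM in Myc WT LZ and 343, 410, 352 and 71.9 TPM in Myc V394D LZ, and 3 of its 6 genes were higher there at an unadjusted p under 0.05 in limma. Differences also varied with transcript length: the median difference between MBC and LZ over all genes was -0.42 in the shortest of 4 equal length classes, up to 715.5 bases, and 0.14 in the longest. The 26 members of the shortest class had a median of -1.80 and the 5 members of the longest -1.31, and the members' median lay below that of all genes in each of the 4 classes. In Myc V394D LZ against Myc WT LZ the medians over all genes in these classes were -0.41 and -0.21, and those of the members were -0.71 and -0.52. The part of cell type markers and proliferation in the results was not tested.

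Copies elsewhere in the genome could share reads with 15 members, for which another gene held a stretch of at least 200 bases with 95% identity. In 2 of them the other gene had at least 10% of the member's level. For Mrpl23 this was the processed pseudogene Mrpl23-ps1, at 19.5 TPM against 26.1 TPM over all libraries with 507 bases at 100% identity, so the level of Mrpl23 is uncertain. For Mrps26 it was several genes that share a short repeat with its longest transcript. On the same strand, a gene at 10% or more of the member's level overlapped 4 members: Mrps34 as described, Mrpl3 with Gm38077 at 7.54 against 34.9 TPM, Mrps24 with Urgcp at 3.14 against 24.7 TPM and Mrps6 with Slc5a3 at 1.33 against 7.18 TPM. The levels of these members are uncertain to that extent.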

How the data were processed

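Total RNA of sorted cells was sequenced and, per the labels, aligned with STAR (2.5.2a) and quantified with RSEM (1.3.0) on GRCm38. The authors deposited TPM, length-corrected shares of all transcripts, in 1 table of 11 libraries. TPM keep no read counts, so depth is unknown and count tests were not used. Groups came from the sample labels. Differences were tested with limma (3.58.1, R 4.3.3; empirical Bayes with trend) on log2(TPM + 1) for genes that averaged 1 TPM or more in the libraries compared, two-sided, with Benjamini-Hochberg adjustment over all genes tested and a threshold of 0.05. The script was tested on simulated data. Fold changes on this scale understate changes of low genes. Single members were also given an exact two-sided permutation test. Replicates are separate mice.

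The members and lists were chosen with earlier results of these data known. Named members were, per comparison, up to 10 in each direction past the adjusted threshold or, with fewer than 5, up to 5 at an unadjusted p under 0.05 (up to 3 between Myc V394D LZ and MBC), those with the highest and lowest levels, those listed at 0 that averaged 10 TPM or more, and Mrps12, Mrpl12, Mrpl58 and the Mrps18 genes by role. MBC and LZ libraries of mice 1, 3 and 4 are paired by the animal in their labels. Deviations of same-mouse libraries had correlations of 0.00684, 0.00177 and -0.0343. Similar copies were searched with blastn (2.17.0). Alternatives covered the pseudocount, filter, scaling, samples in the fit, mouse as a block and each library left out.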

Additional observations from a re-analysis of the deposited data

Results flagged for a closer look

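Of 72 groups of 4 LZ libraries over the named members, 5 held a library whose gap to the next exceeded Dixon's 95% critical value; chance flags about 1 in 20 groups. In Myc V394D LZ these were Mrpl14 at 8.72 TPM in mouse 8, below the other libraries, and Mrpl54 at 39.81 TPM and Mrps6 at 24.17 TPM, each above the others in mouse 6; Slc5a3 overlaps Mrps6 on the same strand, so its level is uncertain. In Myc WT LZ they were Mrpl58 at 16.46 TPM in mouse 4, below the others, and Mrps18c at 62.51 TPM in mouse 2, above them.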

How the results depend on the processing

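The median over members kept its sign in every comparison under every alternative; the counts depended on the settings. For Myc V394D LZ against Myc WT LZ, the median was -0.39 with rRNA removed and -0.36 with median-ratio scaling. The number lower at an unadjusted p under 0.05, a count added after seeing the data, went from 33 to 16 and 15 under these and to 14 with all 3 groups in the fit, and ranged from 21 to 41 with 1 library left out, while the share of all genes went from 15.7% to 6.56%, 6.5% and 7.22% and ranged from 9.43% to 21.5%; the number past the adjusted threshold ranged from 0 to 4. For MBC against LZ, 11 members passed, against 6 with a pseudocount of 0.1 (median -1.75), 5 with no filter, 18 with median-ratio scaling, 22 with all 3 groups and 1 with the mouse as a replicate block, and 2 to 33 with 1 library left out. The share of all genes called lower moved too, from 5.04% to 3.84%, 1.16%, 6.63%, 7.71% and 0.897% under the settings named. No other comparison could be blocked, since no mouse gave both of its groups. For Myc V394D LZ against MBC, 2 passed, against 1 with a pseudocount of 0.1, 0 with no filter, 4 with rRNA removed, 4 with median-ratio scaling and 5 with all 3 groups (4 higher and 1 lower, Mrpl38), against 1.36%, 0.861%, 0.257%, 2.11%, 2.27% and 4.19% of all genes called higher and, with all 3 groups, 7.73% called lower, and 0 to 10 with 1 library left out; the number higher at an unadjusted p under 0.05 went from 14 to 28, 26 and 25 under the last 3 settings and ranged from 7 to 27, while the share of all genes went from 7% to 10.9%, 10.8% and 10.3% and ranged from 5.07% to 10.7%. Mrps18a in Myc V394D LZ against Myc WT LZ changed sign to 0.27 with rRNA removed and 0.29 with median-ratio scaling, and ranged from -0.35 to 0.16 with 1 library left out. Mrps18b ranged from -0.086 to 0.36 in that comparison and from -0.76 to 1.11 in MBC against LZ. The cause of these changes was not tested. Unknown depth limits what the zeros in MBC can show.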
